A study of Homo sapiens with 12 samples.

Results

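N6-methyladenosine (m6A) peaks of control HGC27 cells, a line from an undifferentiated human gastric carcinoma, were described across genes. Every row of the deposited control peak list was taken, 39492 peaks on 18074 genes. The list set 3 control immunoprecipitation (IP) libraries against 3 control input libraries, 6 of the 12 libraries of a series on FTO knockdown. The control libraries were titled WT with Con numbers and carried the genotype label WT, and the labels call the controls the negative controls of the FTO knockdown cells without naming the control construct. Poly(A) RNA was broken into short fragments, m6A-bearing fragments were pulled down with an antibody, and input fragments were kept untreated. The 6 libraries entered 1 pooled list, so no peak had a value per replicate and no test between replicates could be made. The labels do not say whether the numbered libraries came from separate cultures. Depth per library was not analysed here, since the list held no read counts.

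m6A is an internal mark of messenger and long non-coding RNA, placed by a writer complex around METTL3 and METTL14, removed by the erasers FTO and ALKBH5, and bound by readers such as the YTH proteins. In mammalian messenger RNA it is known to gather in long internal exons, around stop codons and in 3′ UTRs, mostly in a sequence context of GGAC and its relatives. The related cap mark m6Am, which the same antibodies bind, sits on an adenosine at the first transcribed position.

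The sequences at the transcript start are shown first, because peaks in the 5′ UTR can hold either mark. A single start was given by RefSeq (GRCh38.p14) for 11786 protein-coding symbols, of which 7027 had a peak. Peak blocks covered all of the first 50 transcribed bases in 910 of these 7027 genes (13%). The 6 genes below were among those with the strongest covering 5′ UTR peaks, at an adjusted p of at most 1e-05, and had GGAC in these bases. Each line gives 30 bases of the RefSeq transcript strand with GGAC in capitals.

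AEBP2 (chr12:19440615-19440644, plus strand): cttcgctcctcacGGACctcaGGACggctc

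APBA3 (chr19:3761643-3761672, minus strand): ggatagaggagcgggcgccgGGACcgggaa

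DHX36 (chr3:154324453-154324482, minus strand): ggcttccgggcccGGACgccatttccagcg

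SCRN2 (chr17:47841224-47841253, minus strand): aggaggtggcacccgGGACcgagctggggt

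ATOH8 (chr2:85754005-85754034, plus strand): gcgctccgggaacGGACagcccggcggctt

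ZNF747 (chr16:30534809-30534838, minus strand): ccagttctgaccatGGACtcgcagccatcg

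The peak over the start of AEBP2, a partner of the Polycomb repressive complex, was enriched 87.8-fold over 1019 exonic bp. The peaks over APBA3 (43-fold, 929 bp), DHX36 (42.8-fold, 211 bp), SCRN2 (38.9-fold, 211 bp), ATOH8 (30.9-fold, 1200 bp) and ZNF747 (30.5-fold, 597 bp) followed. GGAC occurred on the transcript strand in the first 50 bases of 22.4% of the 910 covered starts and of 19.7% of all 11786 starts. Its reverse complement, GTCC, was found in 15.7% of the covered and 19.4% of all starts. The longer form GGACT, which overlaps GGAC, was in 5.49% of covered and 4.9% of all starts, and its reverse complement AGTCC in 4.29% and 5.21%. The first transcribed base was A in 57.9% of the covered starts and in 51.5% of all. It was A in 47% of the starts of the other 6117 genes with a peak. Peak blocks did not cover all 50 bases in these genes, but may overlap part of them. GC content of the 50 bases was 64.9% in the covered starts, 63.7% in all and 67% in those of the other 6117 genes. In that last group GGAC occurred in 19.1% and GTCC in 20.5%. These shares are descriptions of RefSeq starts, which need not be the starts used in HGC27 cells.

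MicroRNA hairpins inside peaks form a second set of sequences. Of the 1562 RefSeq hairpins, 34 overlapped a peak block on the same strand and 24 lay wholly inside one. The 5 hairpins below were among those inside the strongest peaks on protein-coding genes at an adjusted p of at most 1e-05, and 1 RefSeq mature sequence of each is printed with the seed, bases 2 to 8, in capitals. No seed was shared among them.

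hsa-miR-1199-5p (chr19:14073381-14073400, plus strand): cCUGAGCCcgggccgcgcag

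hsa-miR-6787-5p (chr17:82236673-82236694, plus strand): uGGCGGGGguagagcuggcugc

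hsa-miR-922 (chr3:197674498-197674520, minus strand): gCAGCAGAgaauaggacuacguc

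hsa-miR-1182 (chr1:231019841-231019863, minus strand): gAGGGUCUugggagggaugugac

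hsa-miR-3714 (chr3:16933196-16933217, plus strand): gAAGGCAGcagugcuccccugu

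The host peaks lay in the 5′ UTR of MISP3 (30.5-fold), an exon of the lactate carrier gene SLC16A3 (28.3-fold), the 3′ UTR of RUBCN (23.5-fold), the 3′ UTR of FAM89A (15.9-fold) and the 5′ UTR of PLCL2 (14.1-fold). These were peaks of the host transcripts, from poly(A) RNA, and gave no value for the mature microRNAs. The list named a microRNA as the transcript type of 396 peaks, but 30 of those overlapped a hairpin. Of the 396, 329 lay on a protein-coding gene model and 256 in a 3′ UTR. The column names the transcript with the nearest start, and the listed microRNA gene was the gene of the peak's own model for 8 of the 396 peaks.

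The peaks were short and moderately enriched. Their exonic length, the sum of the block sizes, had a median of 330 bp (quartiles 180 and 600, range 57 to 14083 bp) and summed to 18.8 Mb. The fold enrichment of IP over input, the authors' value for each peak, had a median of 6.11 (quartiles 3.05 and 10.2, range 1.09 to 795). Peaks of at least 20-fold numbered 2329 (5.9%) and peaks of at least 1000 bp 4120 (10.4%). An enrichment of at least 4-fold was listed for 65% of the peaks. Of all peaks, 30.6% spanned 2 or more blocks joined across introns, and these were longer (480 against 271 bp) and somewhat stronger (6.835- against 5.63-fold) than peaks of 1 block.

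Support was uneven. The list held peaks up to a p of 0.0501, and 4490 peaks (11.4%) had an adjusted p above 0.05. An adjusted p of at most 1e-05 was listed for 24373 peaks (61.7%), called well supported below. These had a median of 490 bp and 6.57-fold, against 178 bp and 5.04-fold for the others. Among the others under 10-fold, 44.4% had a fold that was a whole multiple of 0.7635, to within 0.0051, against 5.49% of the well supported peaks. The single value of 6.11 was listed for 1293 peaks, whose median p was 0.0479. The overall median fold thus coincides with a step shared by weakly supported peaks, and for many gene groups below the median of the well supported peaks stands beside that of all their peaks.

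Longer peaks were stronger. The median fold was 3.05 in peaks under 200 bp, 5.15 from 200 to under 500 bp, 9.05 from 500 to under 1000 bp, 13.3 from 1000 to under 2000 bp and 15.7 from 2000 bp upwards. The share of well supported peaks rose across the same classes from 20.3% to 100%. Spearman's rho between length and fold was 0.60 over all peaks and 0.65 over the well supported ones, a description over peaks that share libraries and, in part, genes. The same order of lengths held in each region, as the plot of enrichment by length shows.

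**Figure D1:**
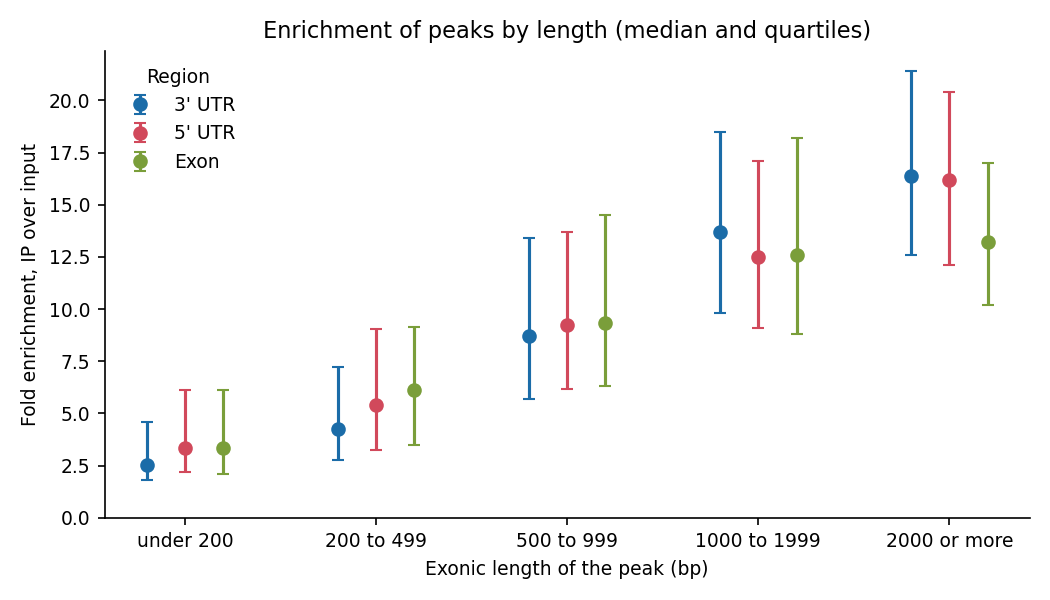
Fold enrichment of IP over input (y axis, linear) by exonic length class in bp (x axis) and annotated region. Points are medians over peaks and bars run from the lower to the upper quartile, and in the 3′ UTR the median goes from 2.55 under 200 bp to 16.4 from 2000 bp upwards.

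By the list's annotation, 18791 peaks (47.6%, 95% exact binomial interval 47.1 to 48.1) lay in a 3′ UTR, 4988 (12.6%, 12.3 to 13) in a 5′ UTR and 15713 (39.8%, 39.3 to 40.3) in another exon. The intervals cover counting error only. Peaks in 3′ UTRs were the longest of the 3 regions (median 391 bp) and the most often well supported (73.2%). Peaks in 5′ UTRs had a median of 300 bp and other exons 271 bp, with 60.4% and 48.4% well supported. Median enrichment differed little, at 5.89-, 6.11- and 6.11-fold, and among well supported peaks at 6.56-, 6.87- and 6.49-fold. Peaks of at least 1000 bp made up 14.4% of 3′ UTR, 8.5% of 5′ UTR and 6.3% of other exon peaks. Peaks in 5′ UTRs joined blocks across introns most often, in 45.7%, against 28.9% and 28% in 3′ UTRs and other exons. The annotation gives 1 region to a peak even when the peak runs through several.

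Protein-coding genes held most of the map. Gene models that RefSeq lists as protein-coding carried 29768 peaks (75.4%), long non-coding RNA genes 3442 (8.72%) and pseudogenes 1871 (4.74%), and 4373 peaks (11.1%) lay on models with no RefSeq match by symbol. On protein-coding genes, 60.4% of the peaks were in a 3′ UTR, 16.2% in a 5′ UTR and 23.4% in another exon. Of the 12351 protein-coding genes with a peak, 5388 (43.6%) had peaks annotated in 3′ UTRs alone and 604 (4.89%) in 5′ UTRs alone. Peaks in both UTRs but in no other exon were found in 2019 genes (16.3%), and 1040 genes (8.42%) had peaks in all 3 regions. On these genes 4062 of the peaks in other exons lay in an internal exon, where the median was 301 bp and 3.97-fold, 66.4% were well supported and 52.5% spanned several blocks.

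The listed transcript types gave another picture, because they belong to the transcript with the nearest start. Protein-coding transcripts were listed for 33.4% of the peaks, lncRNA for 17.4%, retained introns for 17%, processed transcripts for 16.6% and nonsense-mediated decay transcripts for 4.45%. Peaks listed as retained introns lay on protein-coding genes in 95.1% of cases, and peaks listed as lncRNA in 25.2%. In all, 8922 peaks (22.6%) were listed under a gene other than the one whose exons they lay in, most often in 3′ UTRs (30.7%) and least in 5′ UTRs (8.42%). Y_RNA, the name with most listed peaks (82, over 58 gene IDs), had 3 peaks on its own models. Genes are therefore counted here by the model that holds the peak's blocks.

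Most genes had few peaks. Of the 18074 genes, 7988 (44.2%) had 1 peak, 4766 had 2, 2589 had 3 and 1328 had 4. At least 5 peaks were found in 1403 genes (7.76%) and at least 10 in 90. The mean was 2.19 peaks over all genes and 2.41 over protein-coding genes. Genes with at least 1 peak of 20-fold or more numbered 2133 (11.8%), and genes whose peaks summed to at least 3000 bp numbered 893 (4.94%). At least 1 peak was found in 61.6% of the RefSeq protein-coding genes, and across the nuclear chromosomes compared this share ran from 49.2% on chromosome X to 69.6% on chromosome 16. Among the protein-coding genes with a peak, 9.54% had at least 5 peaks, 12.6% a peak of 20-fold or more and 6.41% at least 3000 bp in peaks, and these 4 shares are the background for the gene groups. Genes with 1 peak had a median fold of 6.87 for that peak. In genes of 5 or more peaks the strongest peak had a median of 14.3-fold while all their peaks had a median of 5.34-fold.

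**Figure D2:**
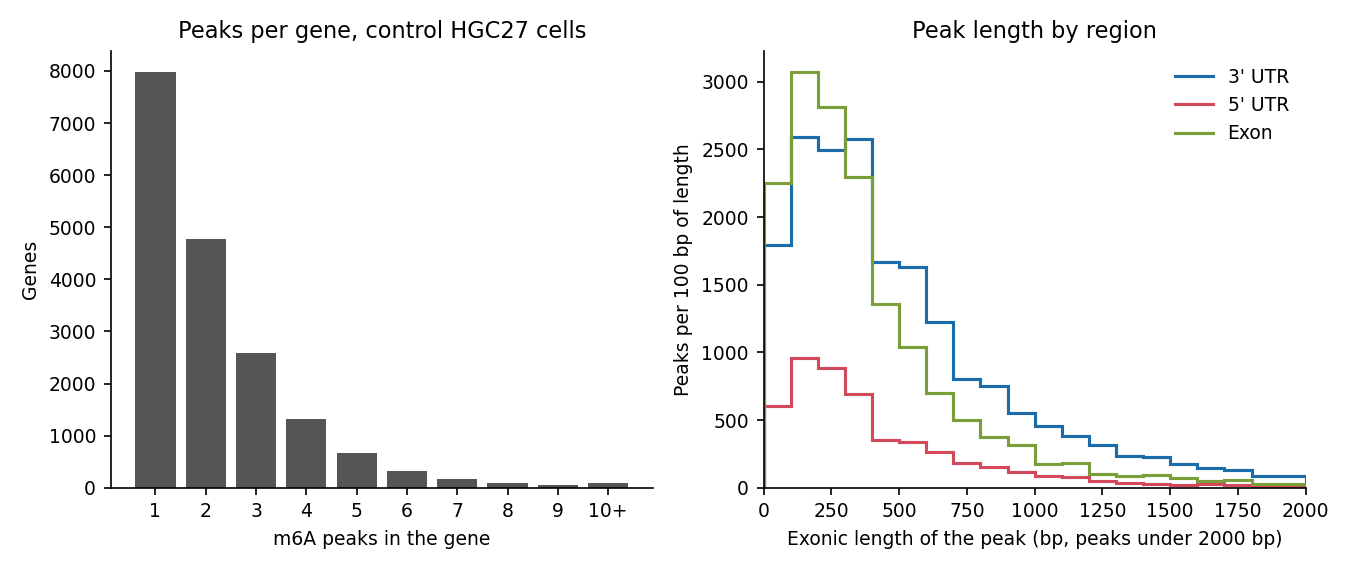
Left, number of genes (y axis) by the number of peaks they carry (x axis), falling from 7988 genes with 1 peak to 90 with 10 or more. Right, number of peaks per 100 bp of exonic length (y axis, peaks under 2000 bp) for each annotated region, where 3′ UTR peaks reach farther to the right than peaks of other exons.

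The genes with most peaks were both coding and non-coding. KCNQ1OT1, the antisense RNA of the imprinted KCNQ1 domain, had 41 peaks from 1.32- to 20.6-fold, of which 10 were well supported, the strongest of these at 13.7-fold. LINC00662 had 32 peaks (19 well supported), the cytoskeletal linker gene DST 25 (18 well supported) and HELLPAR, a long non-coding RNA with no RefSeq match by symbol here, 24 (5 well supported). TTN, which encodes titin, had 21 peaks of which 7 were well supported, SPG7, a mitochondrial protease gene, 19 of which 9 were, and RNF213, a large ubiquitin ligase gene, 18 of which 15 were. CMYA5 also had 18 peaks, but 1 was well supported, a 421 bp peak of 7-fold in its 3′ UTR. EPIC1 had 17 peaks, 4 of them well supported. The list placed 6 of the TTN, 12 of the HELLPAR, 10 of the EPIC1 and 4 of the RNF213 peaks under other genes. The best supported TTN peak, 901 bp and 9.85-fold, was listed under the antisense TTN-AS1. The strand of the reads was not analysed here, so these peaks are not assigned to TTN with certainty. The pseudogene GVINP1 was listed with 27 peaks, which became 13 once overlapping rows were merged.

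A small set of genes was covered by m6A signal over very long stretches. AHNAK2, a giant scaffold gene, held the longest peak of the list, 14083 bp in 1 block at chr14:104940870-104954952, enriched 21.5-fold and annotated as 5′ UTR. Its peaks covered 16873 bp in all, and its control input level was 15.1, 14.2 and 16 FPKM in the 3 libraries. Its relative AHNAK had 12 peaks over 15487 bp, 11 of them well supported. MKI67, the proliferation marker, carried a peak of 8833 bp in 3 blocks (13.5-fold) that the annotation gave to the 3′ UTR. ZNF646 (5667 bp), the cytoskeletal linker gene MACF1 (5550 bp) and FREM2 (5276 bp) had the next longest peaks. By summed length, AHNAK was followed by LINC00662 with 15265 bp, the synaptic scaffold gene PCLO with 13384 bp, DST with 13337 bp, the transcription factor gene ZFHX3 with 12701 bp and the giant cadherin genes FAT4 and FAT1 with 12258 and 11406 bp. In FAT4 all 9 peaks and in FAT1 all 10 were well supported, with medians of 14.7- and 7.88-fold. FAT1 was abundant, at 76.9, 77.3 and 72.2 FPKM, while FAT4 was at 3.25, 3.68 and 3.05 FPKM.

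The 4 genes with the strongest single peaks encode transcription factors. The strongest was in the 3′ UTR of OLIG2, a neural lineage factor, at chr21:33027607-33028381 (775 bp, 795-fold). A second row over nearly the same 779 bp gave 413-fold, so the value depended on the row taken. OLIG2 stood at 1.53, 1.71 and 1.64 FPKM in the input, and all 6 of its rows, 3 after merging, were well supported. ZNF329 (273-fold), ZNF205 (219-fold) and ZNF775 (216-fold) came next, each with its strongest peak in the 3′ UTR. FLVCR1, a haem exporter gene, had a 213-fold peak in its 5′ UTR while its other peaks were weak, giving a median of 1.72-fold over its 3 peaks. Other strong 5′ UTR peaks lay in G6PC3 (133-fold), STX4 (122-fold), JPH2 (116-fold) and CNTNAP1 (112-fold). In 3′ UTRs ERF, an ETS repressor gene, followed with a 1500 bp peak of 115-fold. In other exons the strongest peak, 213-fold, lay on a gene model with no RefSeq match by symbol. ANKRD63 and CXorf49 had 133- and 127-fold peaks in other exons. The fold is a ratio, and the input reads under each peak were not analysed here.

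Zinc finger genes were the largest family with strong and long peaks. Of 560 C2H2 zinc finger genes with ZNF symbols, which include the KRAB repressors of transposons, 496 had 1403 peaks, with a median of 540 bp and 8.4-fold against 359 bp and 5.57-fold over all protein-coding genes. Among well supported peaks the medians were 10.7-fold for ZNF genes and 6.25-fold for all protein-coding genes. At least 1 peak of 20-fold or more was present in 129 of the 496 (26%, against 12.6% of protein-coding genes with a peak), summed lengths of at least 3000 bp in 95 (19.1%, against 6.41%) and at least 5 peaks in 63 (12.7%, against 9.54%). ZNF462 had most peaks, 11 with 10 well supported, at 20.2, 21 and 17.8 FPKM, and ZNF407 had 10. The BTB zinc finger genes of the ZBTB group resembled them, with medians of 510.5 bp and 7.69-fold, and 8.89-fold over well supported peaks. A peak was present in 36 of 36 ZBTB genes and 88.6% of ZNF genes, against 61.6% of all protein-coding genes. ZBTB38 carried a 1620 bp 3′ UTR peak of 32.3-fold, and ZBTB47 a 1434 bp 5′ UTR peak of 28.6-fold.

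Input levels differed between the groups, with a median of 2.18 FPKM over 159 ZNF genes and 99.3 over 15 ribosomal protein genes. Of the genes with a peak and with 1 to 5 FPKM in the control input, the median of the strongest peak was 11.5-fold over all 2008, 15.8-fold over 90 ZNF genes, 16.5-fold over 12 ZBTB genes, 16.7-fold over 7 protocadherin genes, and 15.6- and 16-fold over 5 SWI/SNF and 5 bromodomain and acetyltransferase genes. In the same class it was 10.6-fold over 10 HOX genes, 9.78-fold over 4 respiratory chain genes, 5.8-fold over 5 mitochondrial ribosomal protein genes, 3.48-fold over 3 translation initiation genes, and 10.8- and 10.5-fold in the single aminoacyl-tRNA synthetase and the single SR and hnRNP gene. Mean peaks per gene in this class were 3.05 over all 2008 genes, 3.03 for ZNF, 3.25 for ZBTB and 3.14 for protocadherin genes. They were 4.2 for SWI/SNF, 6 for bromodomain and acetyltransferase, 1.9 for HOX and 2.8 for mitochondrial ribosomal protein genes. A gene's strongest peak rose with its number of peaks, and genes of equal numbers of peaks were not compared. FPKM were at hand for 159 of the 496 ZNF genes, so this describes part of the family, and the part of the input level in the groups' folds was not tested.

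Genes of 3 lists of developmental regulators also had medians above the 5.57-fold of all protein-coding genes. Of 19 SOX genes 12 had a peak (63.2%, near the 61.6% of all protein-coding genes), and none had 5 or more. Their median was 10.7-fold (14.1-fold over well supported peaks). SOX15 and SOX4 had the strongest, 39.7- and 36-fold, both in the 3′ UTR, and SOX15 was listed at 0 FPKM in each of the 3 input libraries. HOX cluster genes, which set positional identity, had peaks in 37 of 39 genes with a median of 7.13-fold (7.63-fold over well supported peaks). HOXC11 (46.7-fold) and HOXA13 (39.7-fold) were the strongest of them. All 33 genes of the TGF-beta list had a peak, where 61.6% of all protein-coding genes did. Their median was 7.06-fold (7.83-fold over well supported peaks), and the inhibitory SMAD7 carried a 959 bp 5′ UTR peak of 64.7-fold. SMAD2 had 10 peaks and SMAD3 7, of which 5 and 6 were well supported. The 95% interval of the log2 ratio to the median of all peaks came from order statistics over peaks. It ran from -0.33 to 0.50 for HOX, from -0.60 to 0.47 for TGF-beta and from -0.04 to 0.70 for ZBTB genes. Each of these 3 intervals thus included the 6.11-fold median of all peaks. The intervals took peaks as independent, though peaks share genes and libraries, and were not set against the 5.57-fold of protein-coding genes.

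Clustered and giant adhesion genes had long peaks. Peaks were present in 65 of 66 protocadherin genes, with medians of 511 bp and 8.02-fold (10.3-fold over well supported peaks), and 25 of the 65 (38.5%, against 12.6% of protein-coding genes with a peak) had a peak of 20-fold or more. PCDHA1 had a 1975 bp peak of 53.4-fold at 0.0563, 0.0575 and 0.0897 FPKM, and PCDHB11 a 1913 bp peak of 47.3-fold. Protocadherins of a cluster share exons and near-identical sequence, so the gene to which each peak belongs is uncertain, and merging overlaps lowered their mean from 3.09 to 2.58 peaks. In the cadherin and FAT list 25 of 39 genes had a peak, with medians of 480.5 bp and 8.11-fold (9.51-fold over well supported peaks). CDH24 (48.1-fold) and CDH7 (37.4-fold) were strongest there. Collagen chains had a peak in a similar share of genes, 29 of 44 (65.9%, against 64.1% of the cadherin list). Both shares were near the 61.6% of all protein-coding genes, and that of protocadherin genes was 98.5%. Their peaks were shorter and weaker, with medians of 330 bp and 5.04-fold (4.81-fold over well supported peaks). Even so, COL8A2 had a 58.8-fold peak and COL6A3 had 11 peaks.

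**Figure D3:**
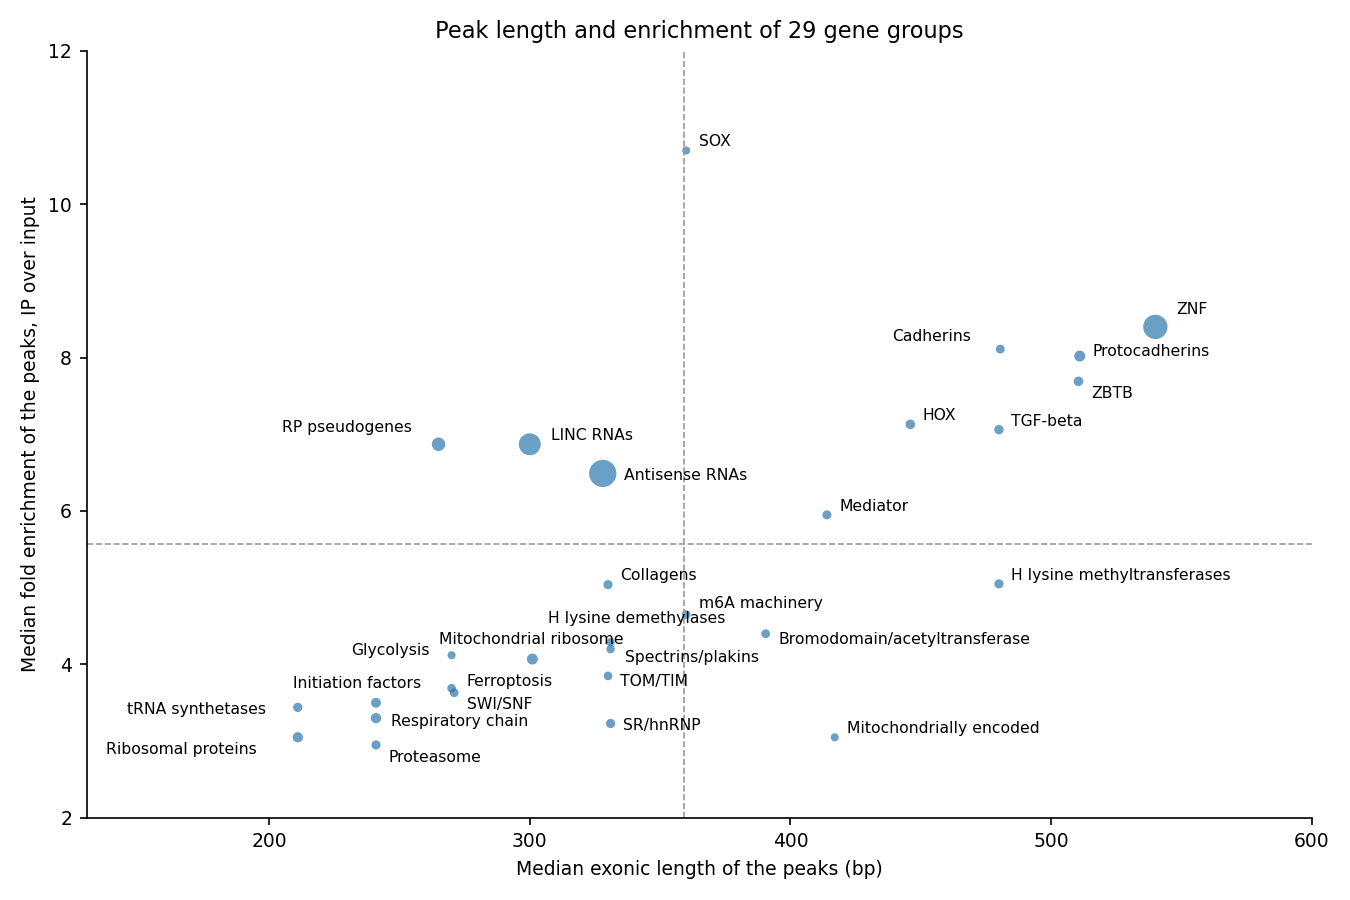
Median exonic length in bp (x axis) against median fold enrichment (y axis) of the peaks of 29 gene groups, with point area growing with the number of genes that have a peak and dashed lines at the medians of all protein-coding genes (359 bp and 5.57-fold). ZNF, ZBTB, protocadherin and cadherin genes lie at the upper right, and ribosomal protein, proteasome and respiratory chain genes at the lower left.

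Chromatin regulators carried many peaks, with medians over all their peaks below the 5.57-fold of protein-coding genes. Histone lysine methyltransferase genes had a mean of 4.59 peaks in 29 of 30 genes, against 2.41 over all protein-coding genes, and 11 of the 29 had at least 5 (37.9%, against 9.54%). Their median was 480 bp and 5.05-fold (6.28-fold over well supported peaks), and 86.5% of their peaks were well supported. KMT2D, which methylates histone H3 at enhancers, had 14 peaks, all well supported, of 121 to 1470 bp and 1.35- to 14.9-fold, with 10 of them in exons other than the UTRs, at 18.8, 18.9 and 18.9 FPKM. NSD2 had 13 peaks, and ASH1L a 2934 bp 3′ UTR peak of 30.7-fold. The 23 bromodomain and acetyltransferase genes all had a peak and a mean of 4.43, and 9 had at least 5, with KAT6B at 10 and CREBBP carrying a 2430 bp peak of 28.5-fold. Histone lysine demethylases had a mean of 3.87 in 15 of 19 genes and SWI/SNF genes 3.52 in 23 of 27, with ARID1A holding a 1918 bp 5′ UTR peak of 21.9-fold. All 9 chromodomain helicase genes had a peak and 8 had at least 5 (88.9%, against 9.54%), with CHD8 at 9. Of all protein-coding genes, 61.6% had a peak. In several of these lists the strongest peak of a gene was higher than the 9.24-fold median of protein-coding genes at large. Its median was 12.5-fold in methyltransferase, 13.4-fold in bromodomain and acetyltransferase and 14-fold in chromodomain helicase genes. It was 10.1-fold in demethylase and 8.4-fold in SWI/SNF genes. The strongest peak is a maximum and rose with the number of peaks. Over all genes its median was 6.87-fold with 1 peak, 12.5-fold with 4 and 14.3-fold with 5 or more. These lists had more peaks per gene, and strongest peaks were not compared at equal numbers of peaks. Over well supported peaks the median was 4.89-fold for bromodomain and acetyltransferase, 4.67-fold for demethylase, 4.98-fold for chromodomain helicase and 3.53-fold for SWI/SNF genes, all under the 6.25-fold of protein-coding genes, which the methyltransferase genes were not. Spectrins and plakins, giant cytoskeletal linkers, had the highest mean among the coding groups described, 8.18 peaks in 17 of 19 genes, with 12 at 5 or more. DST led with 25, and ANK3 and MACF1 had 16 each, and ANK3 was at 0.959, 0.893 and 0.708 FPKM. No length of the mature transcripts was at hand, so peaks per unit of transcript length were not compared.

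**Figure D4:**
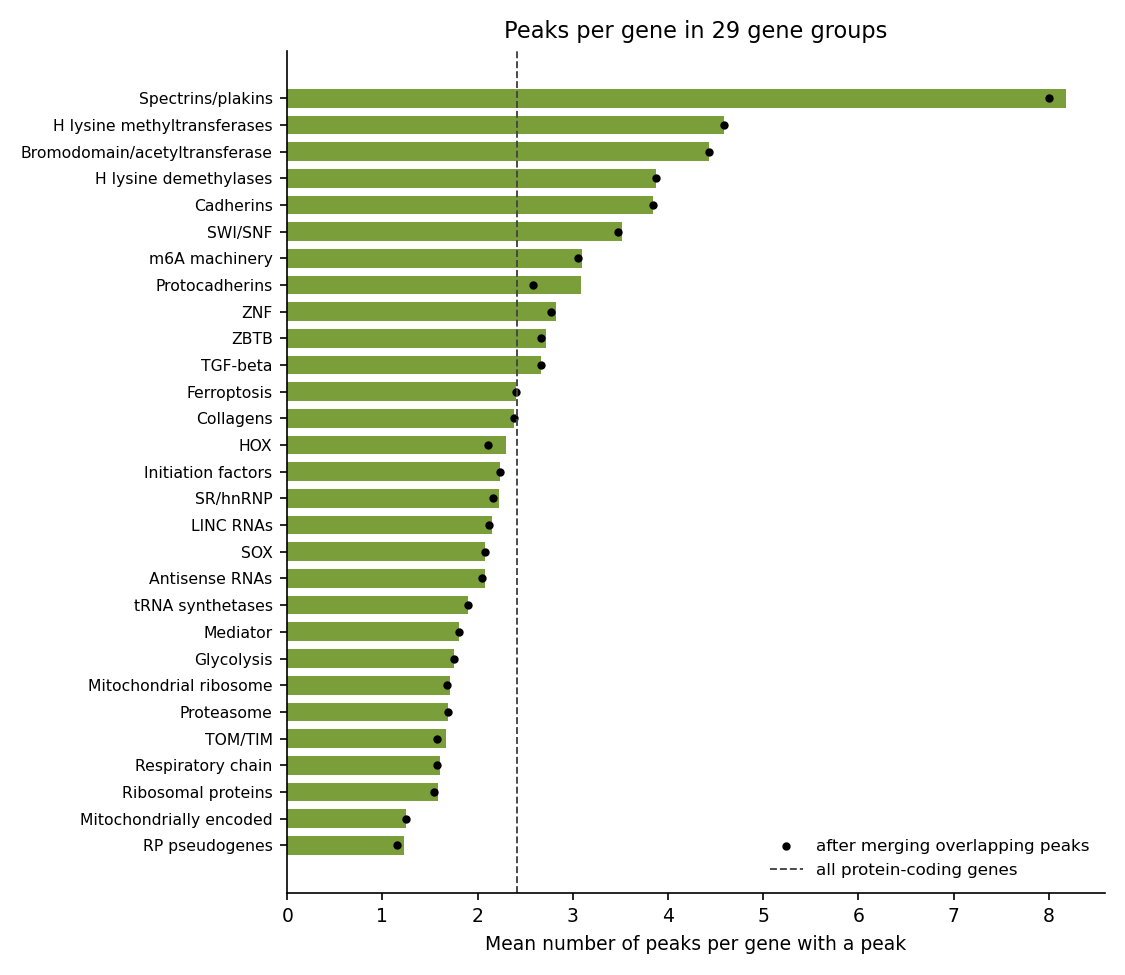
Mean number of peaks per gene with a peak (x axis, bars from 0) in 29 gene groups, with dots giving the mean after overlapping peaks were merged and the dashed line at 2.41, the mean of all protein-coding genes. Spectrins and plakins reach 8.18, histone lysine methyltransferases 4.59, and ribosomal proteins 1.58.

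Several housekeeping families had weak peaks. Of 88 cytosolic ribosomal protein genes 50 (56.8%, near the 61.6% of all protein-coding genes) had a peak, with medians of 211 bp and 3.05-fold (3.3-fold over well supported peaks), and 2 had at least 5 peaks. RPL7L1 (20.6-fold) and RPS24 (15.3-fold) had the strongest, neither well supported, and their strongest well supported peaks were 20.1- and 7.05-fold. Proteasome genes had peaks in 29 of 48 (60.4%), with a median of 241 bp and 2.95-fold, and among the well supported peaks 2.84-fold. Nuclear genes of the respiratory chain and ATP synthase had peaks in 51 of 97 (52.6%), with a median of 241 bp and 3.3-fold (3.31-fold over well supported peaks), and none of the 51 had at least 5 peaks. NDUFA7 and NDUFA2 were exceptions in strength, at 23.7- and 23.3-fold. Of 15 mitochondrially encoded transcripts 12 had a peak, with a median of 3.05-fold and, unlike the other families here, a length of 417 bp above the 359 bp of protein-coding genes, and 93.3% of their peaks were well supported. MT-ND2 had the strongest peak at 6.57-fold. Mitochondrial ribosomal protein genes had peaks in 63 of 77 with a median of 4.07-fold (4.34-fold over well supported peaks), and 78.7% of these peaks were in a 3′ UTR.

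RNA-handling genes were low as well. SR and hnRNP genes, which encode splicing regulators, had a peak in 31 of 38 genes (81.6%, against 61.6% of all protein-coding genes). Their median was 3.23-fold (3.79-fold over well supported peaks), and none had a peak of 20-fold or more. HNRNPU had 7 peaks, the strongest at 3.43-fold, at 14.5, 14.1 and 13.3 FPKM. Translation initiation genes had a median of 3.5-fold (3.59-fold over well supported peaks) in 42 of 56 genes and aminoacyl-tRNA synthetases 3.44-fold (4.28-fold) in 31 of 34, with the mitochondrial MARS2 an exception at 43.9-fold over 1409 bp of 3′ UTR. Some groups outside RNA handling differed in region. The TOM and TIM import genes had 85.7% and the Mediator genes 79.6% of their peaks in 3′ UTRs, against 60.4% over all protein-coding genes. Their median folds were 3.85 and 5.95, so the Mediator genes were not among the low groups (5.57-fold over all protein-coding genes). Glycolysis genes went the other way, with 10 of 21 peaks (47.6%) in 5′ UTRs against 16.2%. PKM, the pyruvate kinase gene, had a 12.2-fold 5′ UTR peak and HK2, a hexokinase gene, a 9.1-fold one.

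Peaks also lay on the m6A machinery. All 21 genes of writers, erasers and readers had a peak, where 61.6% of protein-coding genes did, with a median of 360 bp and 4.65-fold (5.3-fold over well supported peaks). ZC3H13, a writer subunit, had 7 peaks, all well supported, at 4.45, 4.77 and 3.44 FPKM. The reader gene YTHDF2 had a single 2029 bp 3′ UTR peak of 19.6-fold at 18.2, 16.9 and 17 FPKM, and METTL16, a separate methyltransferase gene, one of 1200 bp and 19.3-fold. METTL3 had 3 peaks of 1.67-, 2.32- and 2.51-fold, of which the 2.32-fold peak in the 3′ UTR was well supported. FTO had 6 peaks of 3.31- to 9.16-fold, but 1 was well supported, a 720 bp peak of 4.22-fold over 3 blocks annotated as exon at chr16:53814822-53844219, and its input level was 5.48, 5.68 and 5.52 FPKM.

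The pathway in the series' title was covered in part. In the list of HOXC8, MDM2 and p53 axis genes 4 of 5 had a peak. MDM2, the ubiquitin ligase gene acting on p53, carried a 1198 bp 3′ UTR peak of 21.3-fold, and its relative MDM4 had 6 peaks, the strongest well supported one at 10.3-fold. CDKN1A, a p53 target, had 2 peaks of at most 1.94-fold, neither well supported. Of 32 ferroptosis genes 20 (62.5%, the background being 61.6%) had a peak, with a median of 270 bp and 3.69-fold (3.7-fold over well supported peaks), and none had a peak of 20-fold or more. The iron exporter gene SLC40A1 had the strongest, 16.5-fold, followed by DHODH with 13.5-fold. STEAP3, a metalloreductase gene, had 6 peaks and AIFM2 4, of which 4 and 0 were well supported.

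Long non-coding RNA carried peaks of high fold and low support. The 3442 peaks on RefSeq long non-coding RNA genes had medians of 327 bp and 6.87-fold, and 46.6% were well supported, against 67.3% on protein-coding genes. Among well supported peaks the medians were 8.38-fold on long non-coding RNA and 6.25-fold on protein-coding genes. Of 2041 antisense RNA genes 637 (31.2%) had a peak, and of 2304 LINC genes 394 (17.1%). The share over all long non-coding RNA genes was not computed, so these counts have no background beside them. KTN1-AS1 held the strongest peak at 202-fold, followed by PLAC4 (98.5-fold) and NEAT1 (82.6-fold). NEAT1, the scaffold of paraspeckles, was listed with 7 rows, 4 after merging, at 29.4, 29.5 and 27.5 FPKM. MALAT1, another abundant nuclear RNA, had 4 peaks, of which a 1976 bp peak at chr11:65499035-65501010 was enriched 9.41-fold and the weakest 1.16-fold. FTX had 14 peaks and a 1950 bp peak of 51.9-fold. Of 1884 ribosomal protein pseudogenes 120 (6.37%) had a peak, with a median of 6.87-fold and 36.1% well supported. The share over all pseudogenes was not computed. Reads of such near-identical copies and their parent genes may not be told apart.

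Enrichment was lower in abundant transcripts. Control input FPKM were listed for 5552 of the genes with a peak (30.7%), genes that also had a differential peak in the study and are thus a selected part. The 3 input libraries correlated with one another at a Pearson r of 0.9924 to 0.9947 over genes on the log2(FPKM + 1) scale. The strongest peak had a median of 11.6-fold in genes under 1 FPKM, 11.5-fold at 1 to 5, 9.09-fold at 5 to 20, 6.45-fold at 20 to 100 and 3.17-fold in the 48 genes at 100 FPKM or more. Spearman's rho across these 5552 genes was -0.23 for the strongest fold and 0.05 for the number of peaks, a description over genes that share libraries. The input enters both the FPKM and the denominator of the fold. By number of peaks, the median level was 2.81 ± 0.0654 FPKM (SD, n = 3 libraries) in genes with 1 peak, 4.47 ± 0.0717 in genes with 3 and 3.44 ± 0.133 in genes with 5 or more. FPKM were at hand for 15 of the 50 ribosomal protein genes with a peak, with a median of 99.3 and none between 1 and 5, and the part of the level in their folds was not tested.

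**Figure D5:**
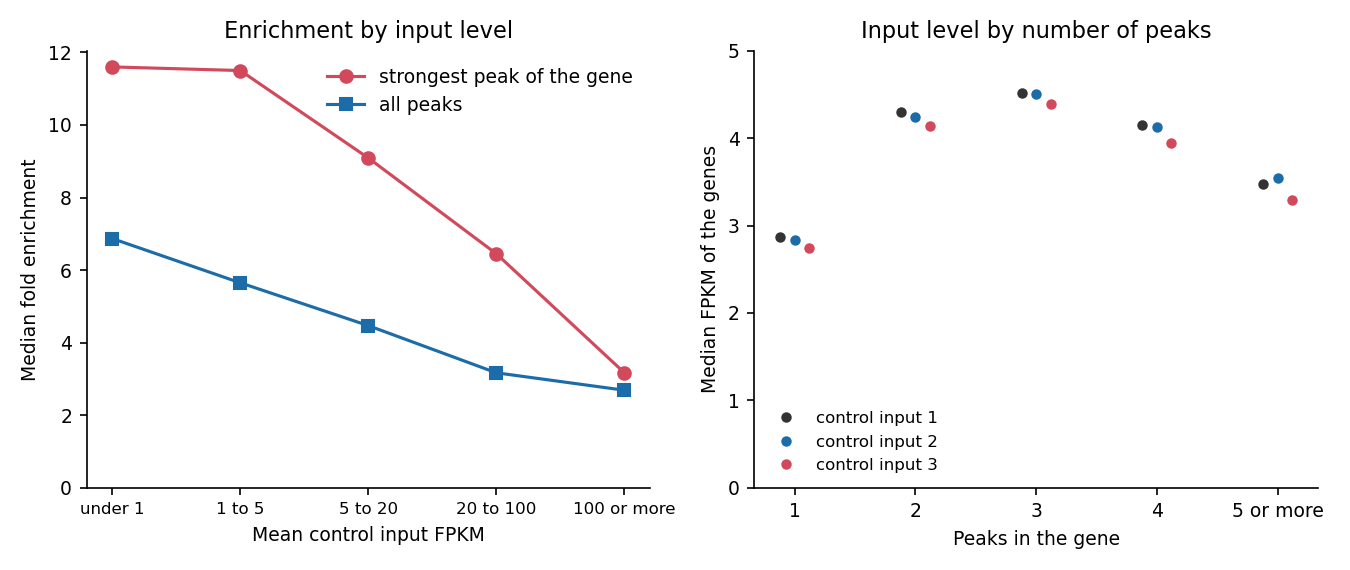
Left, median fold enrichment (y axis) by class of mean control input FPKM (x axis), for the strongest peak of each gene and for all peaks, falling from 11.6 to 3.17 for the strongest peak. Right, median FPKM of the genes (y axis) by their number of peaks (x axis), 1 point per control input library, highest in genes with 3 peaks in all 3 libraries.

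The cell type label was read against markers, beside the 61.6% of all protein-coding genes that had a peak. Of 8 epithelial markers 6 had a peak, 2 of them well supported (CLDN4 and ESRP1), at 0.494 to 0.782 and 3.26 to 3.39 FPKM. Of 10 genes listed by hand for gastric mucosa 3 had a peak (MUC6, CDX2 and MUC1), and MUC1 was at 1.19 to 1.26 FPKM. The 2 with well supported peaks, CDX2 and MUC1, are not specific to gastric mucosa. GIF was looked for by that symbol only, so a peak under another symbol would be missed. Of 8 mesenchymal markers 6 had a peak and 5 a well supported one, with COL1A1 at 165 to 176 and THY1 at 11.8 to 12.9 FPKM. Of 4 endothelial markers 1 had a peak, not well supported, and of 7 immune markers 3, of which 2 were well supported, CD14 with the strongest at 29.8-fold. FPKM were at hand for 5 of these markers. A peak shows enrichment over input and not the level of a transcript, so these counts do not settle the identity of the cells.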

How the data were processed

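MeRIP-seq of 3 control IP and 3 control input libraries of HGC27 cells was analysed from 1 deposited peak list. Per the submitters' processing notes, Bowtie 0.12.2, HISAT2 2.0 and StringTie 1.3.0 were used, with no roles given. The notes name the mouse build mm8, but 95.5% of the 35119 peaks matched by symbol overlapped the span of their human gene in RefSeq GRCh38.p14, so positions were read as GRCh38 and printed from 1. The peak caller is not given in the sources used here. Per the file headers, each peak had a ratio, the fold enrichment of IP over input, and 2 scores on the log10 scale, 1 for its p-value and 1 for that value after adjustment, all computed by the authors on pooled libraries. FPKM of the input libraries were computed by the authors, and 3 FPKM columns of knockdown libraries were not used.

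From these values, exonic length was computed as the sum of block sizes, and genes were taken from the list's gene model column and named with the given gene table, which held 18011 of the 18074 genes. The last 1093 rows run through the chromosomes a second time, and 405 of them overlap earlier rows; all were kept, with merging as an alternative, which left 38333 peaks. Shares have exact Clopper-Pearson 95% intervals. With 1 pooled list there was no replicate spread of peaks, so no test was made. Precision is limited by an unknown depth. Groups came from the sample titles. The members, gene lists and rules were chosen with earlier results of these data known. Named genes were drawn from the 10 with most peaks, with the longest summed peaks and with the strongest well supported peak, the 5 with the longest peak and the 5 strongest per region and among long non-coding RNAs (with the 5 with most peaks there), and per group the 2 with most peaks and the 2 strongest. Not every gene under these rules is named. METTL3 and MALAT1 were named after their values were seen. For sequences, the strongest well supported 5′ UTR peaks over a transcript start with GGAC were taken. For hairpins, the strongest well supported peaks on protein-coding genes were taken. Chromosome 8 was left out of both choices. Group lists took symbols by pattern or by hand and, for protein groups, RefSeq protein-coding genes. The scripts used Python 3.11.15, pandas 2.3.3, NumPy 2.4.6, SciPy 1.17.1 and matplotlib 3.10.9, and block sums, merging and intervals were tested on simulated peaks.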

Additional observations from a re-analysis of the deposited data

How the results depend on the processing

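The alternatives on merged peaks in gene groups, on the listed gene, on RefSeq coding models and on the second run of rows were chosen after seeing the data. A fold of at least 4 left 25679 peaks and an adjusted p of at most 1e-05 left 24373. The 3′ UTR share was 46.6% at a fold of at least 4, 56.4% at the adjusted p, 48.9% with 1 peak per gene, 49.9% on listed protein-coding transcripts, 60.4% on RefSeq coding models and 55.4% weighted by length. The 5′ UTR share was 11.2% with 1 peak per gene, 28.3% on listed protein-coding transcripts, 16.2% on coding models and 11.7% weighted by length. The share of other exons was 40.5% at a fold of at least 4, 31.2% at the adjusted p, 21.9% on listed protein-coding transcripts, 23.4% on coding models and 33% weighted by length. At a fold of at least 4, at the adjusted p and with 1 peak per gene, the transcript type shares were 33.9%, 35.4% and 32.6% for protein-coding, 19.6%, 13.9% and 20% for lncRNA, 14.5%, 18.8% and 15.2% for retained introns, 15.8%, 17.8% and 14.8% for processed transcripts and 4.23%, 4.94% and 3.9% for decay transcripts. Genes with at least 5 peaks were 3.01% at a fold of at least 4, 3.5% at the adjusted p and 7.37% without the second run. The median length was 478 bp at a fold of at least 4, 490 bp at the adjusted p and 450 bp by genomic span. The median fold was 6.57 at the adjusted p and 8.91 with 1 peak per gene.

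Of the 72 gene groups with at least 10 genes that had a peak, 16 had a median fold above that of all peaks, and 31 did at a fold of at least 4; 46 had a mean number of peaks above that of all genes, and 30 did on listed protein-coding transcripts. The log2 ratio to all peaks changed sign on listed protein-coding transcripts for bromodomain and acetyltransferase genes (0.17), HOX genes (-0.24), collagens (0.15) and m6A genes (0.14), and at a fold of at least 4 for respiratory chain (0.03), SWI/SNF (0.06), TOM and TIM (0.04) and histone lysine methyltransferase genes (0.01), where antisense and LINC RNAs came to 0.00. Of the 29 groups described, 28 of 28 with a value stayed on the same side of all peaks in median fold at the adjusted p, 21 of 27 at a fold of at least 4, 20 of 24 on listed protein-coding transcripts, 29 of 29 after merging and 27 of 29 by the listed gene. These counts do not use the protein-coding medians given above, 5.57-fold and, at the adjusted p, 6.25-fold. Against those, histone lysine methyltransferase genes went from below (5.05-fold) to above (6.28-fold). Mediator genes, at 5.95-fold in both, went from above to below. Median log2(FPKM + 1) was 0.22 higher in genes with at least 5 peaks than with 1, 0.28 with a pseudocount of 0.1 and -0.27 over genes of at least 1 FPKM, so its direction depended on the low genes. Leaving out each input library gave 0.20 to 0.21. No paired analysis was possible because the peak list is pooled and names no replicate. Peaks per 1000 residues were not run, since no protein table was used here. The causes of these shifts were not tested.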
